A study of Mus musculus with 12 samples.

Results

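The 39 Hox genes of the deposited expression table and 6 further transcription factors of limb position, Pitx1, Tbx4, Tbx5, Tbx15, Shox2 and Prrx2, were followed through 12 mouse RNA sequencing libraries. They were taken by symbol alone and make up 45 of the 24421 genes in the table. There were 3 libraries of bone marrow mesenchymal stem cells (MSCs) of p53 wild-type (WT) mice, 3 labelled as MSCs of p53 knockout (KO) mice and 6 labelled as tumors of p53 knockout mice. MSCs had been sorted as cells without CD45, Ter119 and CD31 and with the leptin receptor and CD140a, which marks stromal cells around marrow vessels. The tumors are described as sarcomas of bone or bone marrow, and no sort of their cells is described. All libraries are labelled as freshly isolated. The labels name no bone, no forelimb or hindlimb, no age and no promoter or Cre behind the knockout, and the values below were therefore set against no known site. No label ties a library to an animal, and the spread behind each p-value may thus be technical.

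Hox genes encode homeodomain transcription factors that tell cells of the embryo where they lie along the body axis. They sit in 4 clusters, and genes at the end with low paralog numbers act toward the head while those with high numbers act toward the tail and, in the Hoxa and Hoxd clusters, toward the tip of the limb. Adult fibroblasts and skeletal stromal cells of different sites are known to keep different sets of Hox transcripts, so these genes are read as a record of position. Pitx1 and Tbx4 are the classical hindlimb factors and Tbx5 the forelimb factor. Tbx15, Shox2 and Prrx2 act in the growth and shaping of limb and skull bones.

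In GENCODE M21 coordinates on GRCm38, the Hoxa cluster lies on chromosome 6 from 52155590 to 52260880, Hoxb on chromosome 11 from 96194316 to 96368256, Hoxc on chromosome 15 from 102921103 to 103036852 and Hoxd on chromosome 2 from 74668310 to 74765142. They hold 11, 10, 9 and 9 of the members. Pitx1 lies on chromosome 13 (55825051 to 55836192, minus strand), Tbx4 on chromosome 11 (85886422 to 85916097, plus), Tbx5 on chromosome 5 (119832668 to 119885219, plus), Tbx15 on chromosome 3 (99240381 to 99354259, plus), Shox2 on chromosome 3 (66971727 to 66981771, minus) and Prrx2 on chromosome 2 (30834972 to 30881251, plus).

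The deposited values are stabilized logarithms, from which whole reads per gene and library could be worked back, and reads are given here beside the tests. Normalized reads are reads divided by the size factor of the library. The height of a gene is its log2 value above that of a gene without reads. In both, the shift per gene and batch by which the authors adjusted the deposited values is undone. Normalized reads and heights are thus not adjusted for batch, while the limma tests use the deposited values with a batch term. Libraries held 6841787 to 19318123 reads. The libraries WT MSC 1 and that labelled KO MSC 1 had reads in 20677 and 21769 genes, against 10088 to 15127 in the other 10, and they also held the most neutrophil marker reads, with summed normalized reads of 44417 and 262186 against at most 12089 elsewhere. The library labelled KO MSC 3 had reads in the fewest genes, 10088. It also had the highest deposited log2 value of Rn45s, the precursor of ribosomal RNA, at 19.75 against 13.35 to 17.60 in the other 6 libraries of its batch. The part of this in the members without reads in that library was not tested. Trp53, which encodes p53, kept many reads in 2 libraries labelled as knockout. It had 1778, 1106 and 1309 reads in WT MSC. The libraries labelled KO MSC 1 and 2 had 3641 and 949, and that labelled KO MSC 3 had 55. Tumors 1 to 6 had 132, 170, 374, 273, 35 and 48. The deposited log2 values of Trp53 were 10.49, 9.76 and 6.96 in the libraries labelled KO MSC 1 to 3, against 9.96 to 10.61 in WT MSC. Which part of the gene was deleted is not given in the sources used here, so these values alone cannot tell whether the labels hold. Every direction drawn from the libraries labelled KO MSC rests on their labels. Of the genes of the sort, Lepr, the leptin receptor, had 7381 to 68816 normalized reads in the 6 MSC libraries and 3.62 to 157 in tumors. Pdgfra, which encodes CD140a, had 2392 to 3867 in WT MSC and 549 to 917 in the libraries labelled KO MSC, within the tumor range of 321 to 1716. The 12 stromal identity genes summed to between 127633 and 765647 normalized reads in MSCs, of which Cxcl12 gave 99012 to 591124, and to between 2749 and 8740 in tumors.

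A member was counted as clearly read from a height of 1, which is 13.5 normalized reads. Of the 45 members, 15 were clearly read in no library, 27 in some and 3, Hoxa7, Hoxb2 and Tbx15, in all 12. Clearly read members numbered 15, 18 and 18 in WT MSC 1 to 3, 13, 14 and 9 in the libraries labelled KO MSC 1 to 3, and 17, 21, 21, 14, 21 and 14 in tumors 1 to 6. The 15 members never clearly read were Hoxa6, Hoxa13, Hoxb1, Hoxb8, Hoxb13, Hoxc11, Hoxc12, Hoxc13, Hoxd1, Hoxd4, Hoxd11, Hoxd12, Hoxd13, Tbx4 and Tbx5. They include every member of paralog number 12 or 13, the genes of the tail and of hands and feet.

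**Figure D1:**
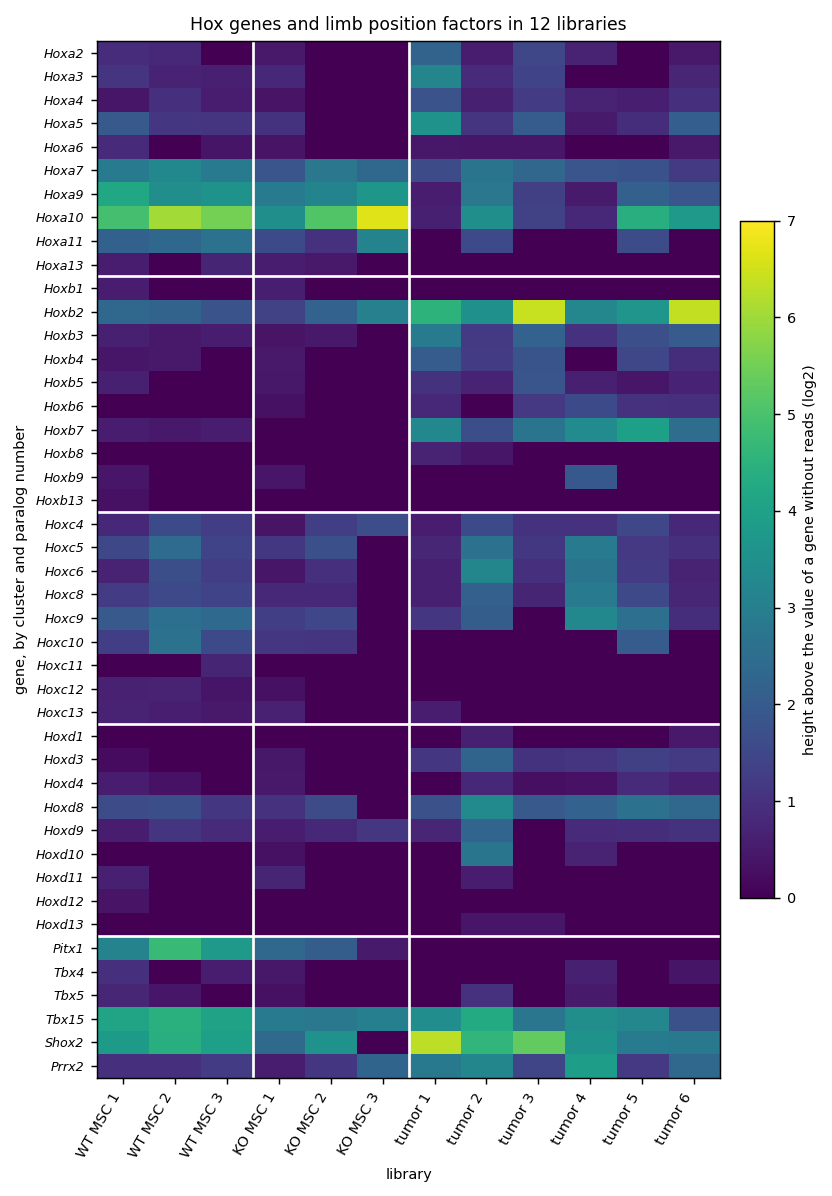
Height above the value of a gene without reads (log2, colour) of the members reported by name, in rows by cluster and paralog number, in the 12 libraries, in columns. Hoxa10 is the brightest Hox gene of the 6 MSC libraries, and Hoxb2 reaches the same range in tumors 3 and 6.

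MSCs and tumors differed in which end of the clusters their Hox reads came from. Levels of different genes were compared per kilobase of exon. Genes of paralog number 9 to 13 made up 68.7%, 75.6% and 79.7% of the Hox reads per kilobase in WT MSC 1 to 3 and 70.0%, 72.4% and 90.9% in the libraries labelled KO MSC 1 to 3. In tumors 1 to 6 they made up 2.06%, 36.4%, 1.41%, 21.0%, 35.9% and 12.4%. The 2 kinds of sample did not overlap in this share. Paralogs 1 to 4, the head end, made up between 5.34% and 10.1% in MSCs and between 14.4% and 76.8% in tumors. Single genes weighed heavily in these shares. Hoxa10 held 77.1 to 816 normalized reads per kilobase in MSC libraries, where every other Hox gene held at most 80.0. Hoxb2 held 58.5 to 637 in tumors, where every other gene of paralog number 1 to 4 held at most 44.2. The shares were not computed without Hoxa10 and Hoxb2. By cluster, Hoxa gave between 73.1% and 93.1% in MSCs and between 5.85% and 40.3% in tumors, and Hoxb gave between 2.51% and 6.27% in MSCs and between 16.5% and 82.1% in tumors. The amount of Hox RNA did not separate the groups: the summed normalized reads lay between 670 and 3469 in MSCs and between 1372 and 3020 in tumors. These shares are descriptions over members chosen with earlier results known, and they carry no test.

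**Figure D2:**
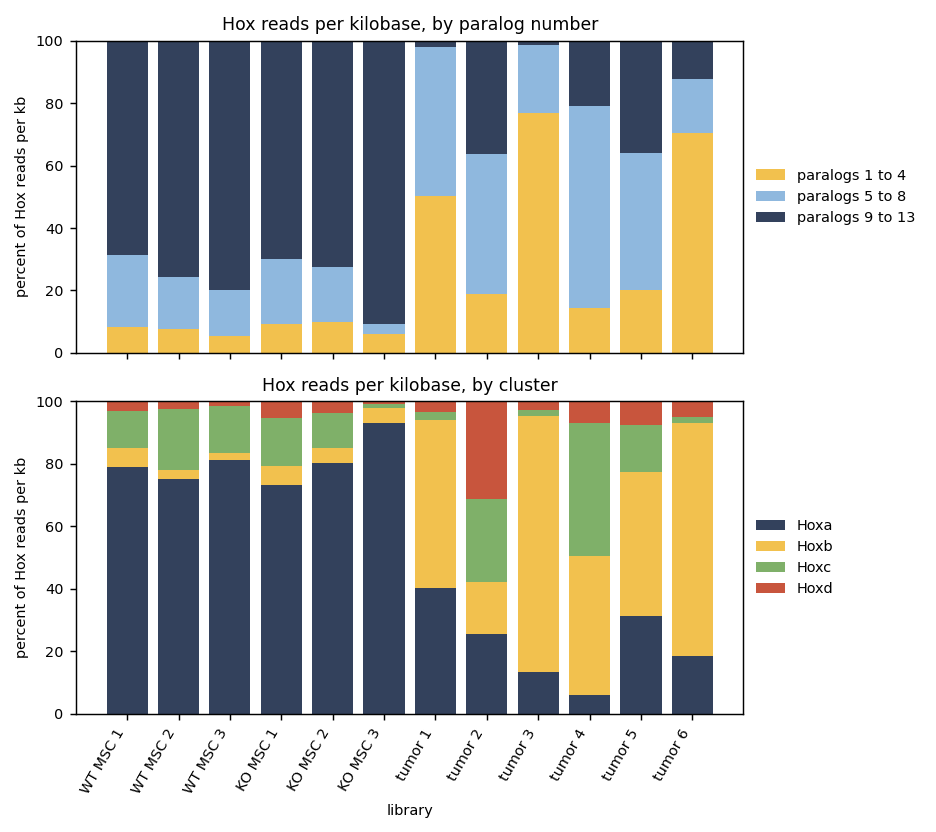
Percent of all Hox reads per kilobase of exon (vertical axis) in each of the 12 libraries (horizontal axis), divided by paralog number in the upper panel and by cluster in the lower. Paralogs 9 to 13 fill at least 68.7% of every MSC bar and at most 36.4% of every tumor bar.

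The Hox gene with the most reads per kilobase was Hoxa10 in all 6 MSC libraries, Hoxb2 in tumors 1, 3 and 6, Hoxb7 in tumors 4 and 5 and Hoxc6 in tumor 2. Per kilobase, the members with the highest mean in WT MSC were Hoxa10 at 374, Pitx1 at 146, Shox2 at 122 and Tbx15 at 118 normalized reads. In tumors they were Hoxb2 at 271, Shox2 at 215, Hoxb7 at 116 and Prrx2 at 70.7.

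Of the 42 members that could be tested, 3 rose and 7 fell in tumors against WT MSC (limma with a batch term, adjusted p under 0.05). Over all 18948 genes tested, 10% rose and 9.5% fell, 1901 and 1800 genes, and scaled by total reads 1327 rose and 4547 fell (voom), with a median over all genes of -0.83. The members that rose were Hoxb6, Hoxb7 and Hoxd3, and those that fell were Hoxa7, Hoxa9, Hoxa10, Hoxa11, Hoxc12, Hoxc13 and Pitx1. Of 14 tested members of paralog number 9 to 13, 0 rose and 5 fell, and of 22 of number 1 to 8, 3 rose and 1 fell. The median difference was 0.07 over the 42 members and -0.04 over all genes. The 3 members not tested, Hoxb1, Hoxb13 and Hoxd12, are missing from the table that served as filter, and had reads in 1 or both of WT MSC 1 and the library labelled KO MSC 1 and nowhere else, at most 10. No sort of the tumors is described, and in bulk samples fewer cells of a type and less RNA per cell cannot be told apart.

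In tumors against the libraries labelled KO MSC, Hoxb7 rose and Pitx1 fell and 40 members did not pass. Over all genes 2.27% rose and 2.1% fell, 430 and 397 genes and 4.36% in all. That split moved with the scaling, to 519 and 1914 with each library centred on its median gene, to 1054 and 574 with voom on the recovered reads (5.56% and 3.03%) and to 509 and 1157 with voom scaled by total reads. Hoxb7 and Pitx1 passed in their directions in these 3 fits also. In normalized reads, 6 members were higher in all tumors than in all 3 libraries labelled KO MSC and 2 were lower, against 6.58% and 4.36% of all genes. Against WT MSC these were 5 and 6 members, against 12.1% and 10.9%. The median difference against the libraries labelled KO MSC was 0.28 over the members and 0.04 over all genes. Both tumor comparisons use the same 6 tumors, so each is given with its own values.

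**Figure D3:**
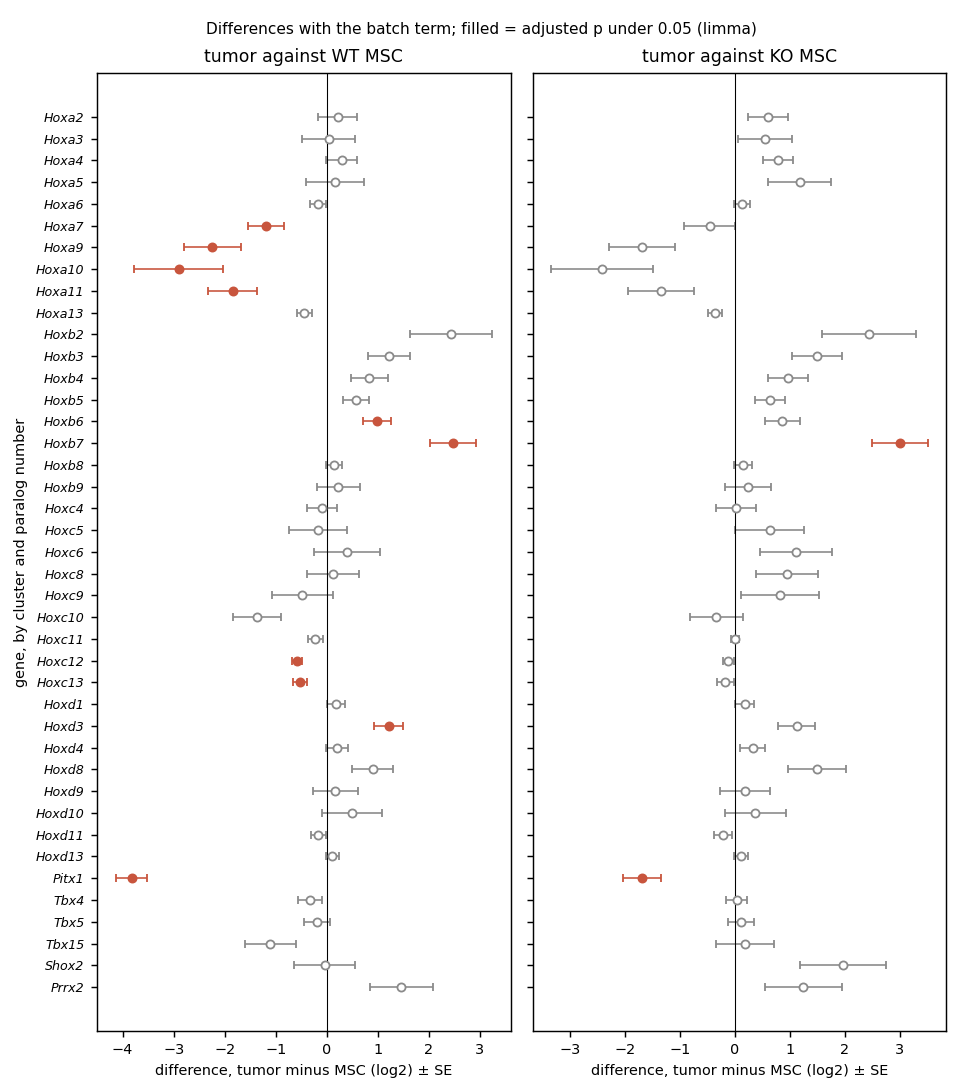
Difference in stabilized log2 value, tumor minus MSC, with its standard error (horizontal axis) for the tested members reported by name (vertical axis), against WT MSC on the left and against the libraries labelled KO MSC on the right; filled points passed an adjusted p of 0.05 (limma). In the left panel 7 filled points lie left of 0 and 3 lie right of it.

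The posterior Hoxa genes carried most of the MSC signal. Hoxa10, known for its part in patterning the upper limb and lumbar spine and in blood progenitors, had 1250, 2170 and 1211 reads in WT MSC and 574, 1186 and 2420 in the libraries labelled KO MSC. In tumors 1 to 6 it had 4, 210, 23, 5, 233 and 307 reads. In the deposited values, which are adjusted for batch, tumor 2 lay at 9.275, beside WT MSC 3 at 9.272. In normalized reads all tumors lay below all WT MSC libraries, and tumors 1, 3 and 4 were at most at 26.7 while tumor 5 reached 525. Its mean was 1221 ± 464 (SD, n = 3) in WT MSC, 1266 ± 1254 (SD, n = 3) in the libraries labelled KO MSC and 189 ± 213 (SD, n = 6) in tumors. Against WT MSC it fell by 2.90 ± 0.87 (SE) on the log2 scale (adjusted p = 0.0485, limma), with -3.09 within batch 1 and -2.79 within batch 2. The call rested on single libraries: it passed in 3 of 9 fits without 1 library, with differences from -3.33 to -2.29, and was lost without any 1 WT MSC library or without tumor 1, 3 or 6 (adjusted p up to 0.253, limma). Against the libraries labelled KO MSC its difference was -2.42 ± 0.92 (SE) and did not pass (adjusted p = 0.167, limma).

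Hoxa9, also a gene of blood progenitors, had 698, 316 and 268 reads in WT MSC and 331, 257 and 271 in the libraries labelled KO MSC. Tumors 1 to 6 had 3, 112, 21, 2, 32 and 48. No tumor reached any MSC library in normalized reads. In the deposited values tumor 2, at 7.729, lay beside the library labelled KO MSC 2, at 7.717. Hoxa9 fell by 2.25 ± 0.55 (SE) against WT MSC (adjusted p = 0.0237, limma) and passed in 5 of 9 fits without 1 library, being lost without WT MSC 1, 2 or 3 or tumor 3 (adjusted p up to 0.176, limma). Against the libraries labelled KO MSC the difference was -1.70 ± 0.60 (SE, adjusted p = 0.141, limma).

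Hoxa11, which patterns the forearm and shank, had 121, 115 and 115 reads in WT MSC, 79, 18 and 166 in the libraries labelled KO MSC, 28 in tumor 2 and 16 in tumor 5. The other 4 tumors had none. Tumors 2 and 5 are also the tumors with the largest share of paralogs 9 to 13. Hoxa11 fell by 1.84 ± 0.48 (SE) against WT MSC (adjusted p = 0.0284, limma), and passed in 2 of 9 fits without 1 library, those without tumor 2 or tumor 5 (adjusted p up to 0.144 in the other 7, limma). Hoxa7, a trunk gene, had 243, 270 and 155 reads in WT MSC, 116, 180 and 82 in the libraries labelled KO MSC and 29, 103, 73, 31, 20 and 19 in tumors 1 to 6. It fell by 1.19 ± 0.36 (SE, adjusted p = 0.0475, limma), passed in 1 of 9 fits without 1 library, that without tumor 2, and had an adjusted p of up to 0.156 in the others. Hoxa13, which acts in hands and feet, had 7, 0 and 7 reads in WT MSC, 9, 4 and 0 in the libraries labelled KO MSC and 0 in 76886430 tumor reads. Its difference against WT MSC was -0.44 ± 0.15 (SE, adjusted p = 0.0709, limma).

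The promoter sequences of these neighbours are shown because Hoxa9, Hoxa10 and Hoxa11 lie side by side and fell in the same comparison, and that of Hoxd3 because it rose. Each holds the 250 bases before a RefSeq transcript start on GRCm38.p6, 5′ to 3′, in lower case. Capitals mark matches on either strand to 4 motifs: the TATA box TATAAA, the CCAAT box CCAAT, the GC box GGGCGG and the composite site of PBX and HOX proteins TGATNNAT.
Hoxa9, chr6:52227371-52227620 (minus strand): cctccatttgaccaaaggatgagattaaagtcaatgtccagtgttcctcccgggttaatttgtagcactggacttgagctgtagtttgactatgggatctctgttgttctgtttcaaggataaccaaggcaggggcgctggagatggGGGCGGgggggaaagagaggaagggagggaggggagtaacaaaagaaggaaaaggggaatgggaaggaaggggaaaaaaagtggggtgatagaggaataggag
Hoxa10, start 1, chr6:52234940-52235189 (minus strand): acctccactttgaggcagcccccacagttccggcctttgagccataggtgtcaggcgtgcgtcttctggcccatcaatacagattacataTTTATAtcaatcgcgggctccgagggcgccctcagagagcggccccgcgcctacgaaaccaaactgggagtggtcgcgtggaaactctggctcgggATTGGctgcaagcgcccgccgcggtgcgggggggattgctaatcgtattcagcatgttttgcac
Hoxa10, start 2, chr6:52240855-52241104 (minus strand): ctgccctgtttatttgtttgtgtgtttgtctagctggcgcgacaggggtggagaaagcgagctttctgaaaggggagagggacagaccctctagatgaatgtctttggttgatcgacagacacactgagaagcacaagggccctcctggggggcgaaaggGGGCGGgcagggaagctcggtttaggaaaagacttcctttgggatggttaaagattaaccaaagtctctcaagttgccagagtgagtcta
Hoxa11, chr6:52245811-52246060 (minus strand): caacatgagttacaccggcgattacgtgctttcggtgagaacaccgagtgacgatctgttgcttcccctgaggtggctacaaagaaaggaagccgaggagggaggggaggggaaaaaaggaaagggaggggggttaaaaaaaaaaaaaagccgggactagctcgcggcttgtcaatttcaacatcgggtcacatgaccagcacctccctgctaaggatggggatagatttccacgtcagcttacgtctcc
Hoxd3, chr2:74711743-74711992 (plus strand): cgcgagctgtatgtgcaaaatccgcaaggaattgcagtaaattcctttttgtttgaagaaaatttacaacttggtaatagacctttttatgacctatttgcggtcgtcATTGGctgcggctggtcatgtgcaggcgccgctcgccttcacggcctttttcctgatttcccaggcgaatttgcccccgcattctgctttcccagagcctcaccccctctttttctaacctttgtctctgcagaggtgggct
Of the 5 windows, those of Hoxa9 and of the start numbered 2 of Hoxa10 hold a GC box, that of the start numbered 1 of Hoxa10 a TATA box and a CCAAT box, that of Hoxd3 a CCAAT box and that of Hoxa11 none of the 4. Among 32851 RefSeq promoters of the same length, the TATA box letters occur in 12.4%, the CCAAT box letters in 33.8%, the GC box letters in 32.7% and the composite letters in 7.68%. Of 27 windows of 25 members found in that table, the letters occur in 22.2%, 51.9%, 48.1% and 14.8%. Such matches describe the letters only.

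The anterior Hoxa genes had few reads in MSCs and differed among tumors. Hoxa5, known for its part in lung, sternum and shoulder, had 94, 21 and 15 reads in WT MSC and 33, 0 and 0 in the libraries labelled KO MSC. It had 211, 13, 54, 2, 5 and 65 reads in tumors 1 to 6. Hoxa3, which acts in the neck and pharyngeal arches, had 26, 8 and 5 reads in WT MSC, 18, 0 and 0 in the libraries labelled KO MSC and 154, 8, 24, 0, 0 and 7 in tumors. Tumor 1 was highest in both and in Hoxa2 and Hoxa4, and neither gene passed against WT MSC (adjusted p = 0.859 and 0.973, limma). The libraries labelled KO MSC 2 and 3 had no reads in Hoxa2 to Hoxa6.

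Apart from Hoxb2, no Hoxb gene had more than 10 reads in an MSC library, while Hoxb2, Hoxb3, Hoxb5 and Hoxb7 had reads in every tumor. Hoxb7, a trunk gene, had 6, 4 and 4 reads in WT MSC and none in 42610303 reads of the libraries labelled KO MSC. It had 163, 34, 107, 141, 162 and 100 reads in tumors 1 to 6, all above every MSC library. Its mean was 3.59 ± 0.43 (SD, n = 3) normalized reads in WT MSC and 178 ± 115 (SD, n = 6) in tumors. It rose by 2.47 ± 0.45 (SE) against WT MSC (adjusted p = 0.00789, limma), by 2.01 within batch 1 and 2.76 within batch 2, and was lost without WT MSC 1 alone (2.76, adjusted p = 0.0501). Against the libraries labelled KO MSC, at a bound of 3 reads over that group, the tumor mean was at least 270-fold higher, with a stabilized difference of 2.997 ± 0.51 (SE, adjusted p = 0.0141, limma). That call was lost without the library labelled KO MSC 1 or that labelled KO MSC 2 (adjusted p up to 0.0709, limma).

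Hoxb2, which acts in the hindbrain and is among the most anterior members, was the most abundant Hox gene of 3 tumors. It had 143, 99 and 47 reads in WT MSC and 57, 101 and 156 in the libraries labelled KO MSC. It had 448, 211, 1914, 125, 127 and 2065 in tumors 1 to 6. Every tumor lay above every MSC library in normalized reads, but in the deposited values tumor 2, at 7.95, lay below the library labelled KO MSC 3, at 8.11. In normalized reads tumors 3 and 6 stood at 2221 and 2140 against 203.9 to 568 in the other 4. Its difference against WT MSC was 2.43 ± 0.80 (SE) and did not pass (adjusted p = 0.0647, limma). On the recovered reads with limma's voom it passed (adjusted p = 0.0336), as did Hoxb3 (adjusted p = 0.0273, voom) and Hoxb5 (adjusted p = 0.0375, voom). Scaled by total reads, none of these 3 passed (adjusted p = 0.105, 0.0728 and 0.143, voom). Hoxb3 had 8, 4 and 4 reads in WT MSC, 4, 4 and 0 in the libraries labelled KO MSC and 120, 16, 66, 8, 19 and 59 in tumors. Of the exon bases of Hoxb3 and Hoxb2, 52.9% and 27.3% are shared with the antisense gene Hoxb3os, and since the library kit does not mark strand, reads of these genes and their antisense partner cannot be told apart.

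Hoxb6 had no reads in WT MSC, 3 in the library labelled KO MSC 1 alone and 7, 0, 16, 22, 6 and 12 in tumors 1 to 6. It rose by 0.98 ± 0.28 (SE) against WT MSC (adjusted p = 0.0408, limma), and at a bound of 3 reads over the WT libraries the tumor mean was at least 19.4-fold higher. It passed in 1 of 9 fits without 1 library, that without tumor 2, the tumor with no Hoxb6 reads (adjusted p up to 0.141 in the other 8). Hoxb9 had 34 reads in tumor 4 and none in the other tumors, and 4 and 5 in WT MSC 1 and the library labelled KO MSC 1. Hoxb13 had 2 reads in WT MSC 1 and none elsewhere.

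In the Hoxc cluster, 5 of 6 MSC libraries were clearly read up to Hoxc10, and the library labelled KO MSC 3 only in Hoxc4. Hoxc9 had 93, 140 and 93 reads in WT MSC, 54, 43 and 0 in the libraries labelled KO MSC and 13, 54, 0, 128, 48 and 11 in tumors 1 to 6. Tumor 4 was highest and tumor 3 had none, and the difference against WT MSC was -0.48 ± 0.60 (SE, adjusted p = 0.588, limma). Hoxc6 had 10, 52 and 22 reads in WT MSC, 5, 16 and 0 in the libraries labelled KO MSC and 4, 165, 11, 77, 9 and 6 in tumors, highest in tumors 2 and 4. Tumor 4 and, below it, tumor 2 also had the most normalized reads of Hoxc5 and Hoxc8. Hoxc10, a lumbar and hindlimb gene, had 38, 150 and 35 reads in WT MSC, 38, 21 and 0 in the libraries labelled KO MSC and 28 in tumor 5 alone. Its difference was -1.37 ± 0.47 (SE, adjusted p = 0.0715, limma), and it passed on the recovered reads (adjusted p = 0.0173, voom) and without tumor 5. The library labelled KO MSC 3 had no reads from Hoxc5 to Hoxc13.

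Hoxc12 and Hoxc13 fell on very few reads. Hoxc12 had 9, 8 and 2 reads in WT MSC, 3, 0 and 0 in the libraries labelled KO MSC and 0 in all tumors. It fell by 0.58 ± 0.10 (SE, adjusted p = 0.00528, limma) and passed in all 9 fits without 1 library. Against a bound of 3 reads over the tumors, the WT mean was at least 6.88-fold higher. Hoxc13, known from hair and nail, had 10, 6 and 3 reads in WT MSC, 12, 0 and 0 in the libraries labelled KO MSC and 3 in tumor 1 alone. It fell by 0.52 ± 0.14 (SE, adjusted p = 0.0311, limma), passed in 3 of 9 fits without 1 library, those without tumor 1, 2 or 4 (adjusted p up to 0.115 in the other 6), and did not pass on the recovered reads (adjusted p = 0.0644, voom).

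In the Hoxd cluster, Hoxd3, which acts in the neck vertebrae, had 1 read in WT MSC 1 and 6 in the library labelled KO MSC 1 and none in the other MSCs. It had 13, 67, 12, 9, 11 and 19 reads in tumors 1 to 6, all above every MSC library in normalized reads. It rose by 1.21 ± 0.29 (SE) against WT MSC (adjusted p = 0.0214, limma), by 1.24 within batch 1 and 1.19 within batch 2, and was lost without WT MSC 1, 2 or 3 (adjusted p up to 0.123, limma). The annotation has it share 53.1% of its exon bases with the overlapping gene Gm28230, so how its reads were divided is uncertain. Hoxd8, a trunk gene, had 59, 52 and 17 reads in WT MSC, 31, 49 and 0 in the libraries labelled KO MSC and 35, 186, 49, 46, 51 and 85 in tumors. In normalized reads every tumor lay above every MSC library. In the deposited values tumors 1 and 3, at 6.30 and 6.50, lay below WT MSC 2, at 6.62. Hoxd8 did not pass (adjusted p = 0.154, limma). Hoxd10 had 107 reads in tumor 2, 4 in tumor 4 and 3 in the library labelled KO MSC 1. Hoxd13 had 2 reads each in tumors 2 and 3 and none elsewhere.

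Among the limb factors, Pitx1 had reads in all 6 MSC libraries and in no tumor, although the library labelled KO MSC 3, with 3 reads, was not clearly read. It had 304, 848 and 318 reads in WT MSC, 200, 88 and 3 in the libraries labelled KO MSC and 0 in each of the 6 tumors, which together held 76886430 reads. At a bound of 3 reads over the tumors, its mean was at least 582-fold higher in WT MSC and at least 78.2-fold higher in the libraries labelled KO MSC. It fell by 3.82 ± 0.31 (SE) against WT MSC (adjusted p = 0.000445, limma), with -3.14 within batch 1 and -4.25 within batch 2, and passed in all 9 fits without 1 library (adjusted p up to 0.00305). Against the libraries labelled KO MSC it fell by 1.69 ± 0.34 (SE, adjusted p = 0.0279, limma), and passed in 2 of 9 fits without 1 library, those without KO MSC 3 or tumor 4 (adjusted p up to 0.196 in the other 7).

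The other hindlimb factor, Tbx4, had 20, 0 and 4 reads in WT MSC, 6, 0 and 0 in the libraries labelled KO MSC and 3 and 2 in tumors 4 and 6. The forelimb factor Tbx5 had 12, 3 and 0 reads in WT MSC, 3, 0 and 0 in the libraries labelled KO MSC and 11 and 2 in tumors 2 and 4. Neither was clearly read in any library, and neither passed against WT MSC (adjusted p = 0.341 and 0.626, limma). Most MSC reads of both genes came from WT MSC 1 and the library labelled KO MSC 1, the 2 libraries with reads in the most genes, and the part of that in these reads was not tested.

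Tbx15 was read in all 12 libraries. It had 655, 687 and 394 reads in WT MSC, 326, 187 and 153 in the libraries labelled KO MSC and 188, 394, 114, 150, 91 and 42 in tumors 1 to 6. The mean was 443 ± 80.8 (SD, n = 3) normalized reads in WT MSC, 150.1 ± 16.3 (SD, n = 3) in the libraries labelled KO MSC and 223 ± 145 (SD, n = 6) in tumors. Its difference against WT MSC was -1.11 ± 0.49 (SE, adjusted p = 0.155, limma), and scaled by total reads it passed (adjusted p = 0.012, voom).

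Shox2, a homeobox gene needed for growth of the upper limb segment, had 531, 673 and 363 reads in WT MSC and 217, 367 and 0 in the libraries labelled KO MSC. It had 1639, 501, 886, 169, 66 and 138 in tumors 1 to 6. The 3 tumors of batch 1 lay at 604 to 2076 normalized reads and those of batch 2 at 143 to 275.7, below the WT range of 326 to 525. In the deposited values of Shox2, which hold the authors' batch adjustment, the tumors of the batches overlapped, with tumor 4 at 9.01 and tumor 2 at 8.70. Its difference against WT MSC was 1.60 within batch 1 and -1.07 within batch 2, and -0.04 ± 0.59 (SE, adjusted p = 0.970, limma) with the batch term. Prrx2 had 20, 15 and 20 reads in WT MSC, 9, 22 and 72 in the libraries labelled KO MSC and 112, 163, 26, 218, 8 and 86 in tumors, with a difference of 1.46 ± 0.62 (SE, adjusted p = 0.136, limma) against WT MSC.

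**Figure D4:**
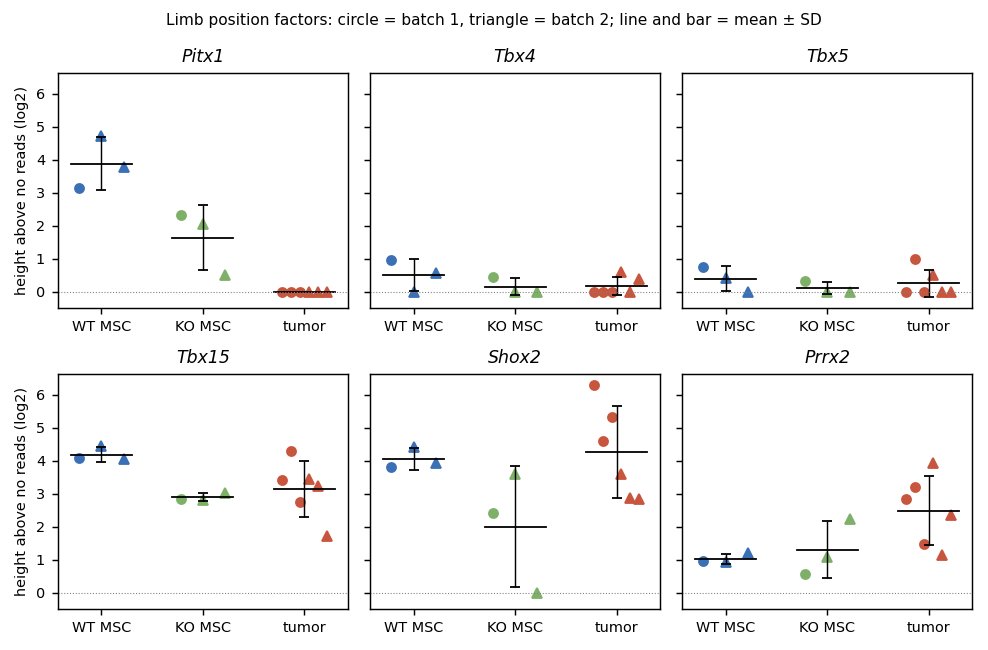
Height above the value of a gene without reads (log2, vertical axis) of the 6 limb factors in the 3 groups, with 1 point per library and lines for the mean and SD. All 6 tumors lie at 0 for Pitx1. On this scale, which is not adjusted for batch, Shox2 divides the tumors by batch.

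The tumors also differed from one another. The SD of the height over the 6 tumors was largest for Hoxa10 (1.67), Hoxb2 (1.43), Shox2 (1.40), Hoxc9 (1.20), Hoxa3 (1.19), Hoxa5 (1.11), Hoxc6 (1.11) and Hoxd10 (1.09). Over the 3 WT libraries it was 0.55, 0.29, 0.32, 0.31, 0.25, 0.51 and 0.50 for the first 7, and Hoxd10 had no reads there. Since these 8 were chosen by that SD, their values carry no test. Tumor 2 held Hoxd10 and the most Hoxd reads per kilobase (31.2% of its Hox signal), tumor 4 the most Hoxc (42.6%), tumors 3 and 6 the most Hoxb (82.1% and 74.7%) and tumor 1 the most Hoxa (40.3%). Tumor 4 also held by far the most skeletal muscle marker reads, with summed normalized reads of 473817 over 10 genes against 58489 in tumor 3 and 105 to 8343 in the other 4. Tumor 1 held the most chondrocyte marker reads, 29058 over 7 genes against 446 to 8550 in the others. The part of either in the Hox differences was not tested.

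Between the libraries labelled KO MSC and WT MSC, 0 of 18948 genes passed (0%, limma with a batch term, lowest adjusted p = 0.469), with 2000 genes, among them 9 members, under an unadjusted p of 0.05, and 0 passed with voom. Of the 42 tested members, 33 had a difference below 0 and 6 above, and their median was -0.36 against -0.01 over all genes. Over all 18948 genes, 9884 lay below 0 and 8773 above. Without the library labelled KO MSC 3, 34 members lay below 0 and 5 above. In normalized reads, 12 of the 45 members were lower in all 3 libraries labelled KO MSC than in every WT library, and 0 were higher. Over all genes 7.05% were lower and 6.8% higher in this way. The 12 were Hoxa4, Hoxa5, Hoxa7, Hoxb3, Hoxb7, Hoxc8, Hoxc9, Hoxc10, Hoxc12, Pitx1, Tbx15 and Shox2. Pitx1 had a difference of -2.25 ± 0.74 (SE), Shox2 of -2.05 ± 1.04 (SE) and Tbx15 of -1.30 ± 0.24 (SE), at adjusted p of 0.469, 0.562 and 0.469 (limma). With each library centred on its median gene, the median moved to 0.41 over all genes and to 0.06 over the members, which then stood at 24 above and 18 below 0.

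Other genes of position were taken from lists. Of 9 partner proteins of Hox factors of the Pbx, Meis and Pknox families, all 9 were tested and 1 fell in tumors against WT MSC, Pknox2 (-2.79 ± 0.56, SE, adjusted p = 0.0109, limma), with a list median of -0.595 against -0.04 over all genes. Of 24 tested factors of limb patterning, 0 rose and 2 fell, with a median of -0.38. Irx3 was 1 of the 2 that fell (-3.94 ± 0.52, SE, adjusted p = 0.00231, limma). Of 11 tested axial and somite factors, Meox2 rose (1.10 ± 0.32, SE, adjusted p = 0.0414, limma) and Nkx3-2 fell (-1.54 ± 0.19, SE, adjusted p = 0.00171, limma), with a median of -0.19. Of 13 tested craniofacial factors, 0 rose and 1 fell, Dlx4, with a median of 0.15. Over all genes, 10% rose and 9.5% fell in tumors against WT MSC. No gene of these 4 lists passed against the libraries labelled KO MSC or between the MSC groups.

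Markers of other cells moved with the tumor comparisons. All 12 macrophage markers rose in tumors against both MSC groups, with summed normalized reads of 41689 to 169494 in tumors and 4.41 to 670 in MSCs. Of 10 endothelial markers 8 rose against WT MSC, with sums of 1027 to 4681 in tumors and 203 to 531 in MSCs. Of 10 markers of blood progenitors, cells in which Hoxa9 and Hoxa10 are also used, 3 rose and 3 fell against WT MSC, with sums of 969 to 15017 in tumors and 524 to 7551 in MSCs. Cd34, Cd48 and Mecom rose, and Cd34 and Cd48 gave 10747 and 4137 of the 15017 in tumor 5. Gfi1b, Myb and Kit fell in the same comparison as Hoxa9 and Hoxa10. Gfi1b had 227 to 3719 normalized reads in MSCs and 0 to 5.18 in tumors, Myb had 37.5 to 1987 and 0 to 6.76, and Kit had 76.1 to 1521 and 18.7 to 83.2. Among MSCs, the library labelled KO MSC 1 had the most of all 3. It also had the fewest normalized reads of Hoxa9 and Hoxa10 there, 145 and 252. WT MSC 1, with the next most Gfi1b and Myb, had the most Hoxa9, 428. Mecom and Myb were named after their values were seen. Of 10 erythroid markers 0 rose and 4 fell, and of 9 neutrophil markers 0 rose and 3 fell. Of 12 stromal identity markers 0 rose and 10 fell against WT MSC, among them Lepr and Cxcl12, the genes by which these MSCs are known. Of 9 lymphocyte markers 4 rose, and of 10 osteoblast, 7 chondrocyte, 10 skeletal muscle and 7 myoblast markers none passed (limma). The part of these cells in the Hox and limb factor differences was not tested.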

How the data were processed

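Bulk RNA was sequenced in 12 libraries, with cDNA made by SMART-Seq v4 and an unstranded library kit, per the labels' protocols. The submitters' processing notes name TopHat2 2.0.13, Cufflinks 2.2.1, Cuffdiff and mm10. One table deposited by the authors holds stabilized log2 values of 24421 genes, with a shift per gene and batch. Another deposited table holds scores of 18949 genes, which equal 100 times those log2 values times a factor per library and rounded (100% of its genes within 0.01).

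Libraries that share exact lowest values form 2 batches: WT MSC 1, the library labelled KO MSC 1 and tumors 1 to 3, and the other 7. The stabilized values follow an inverse hyperbolic sine, and inverting it gave whole reads in all 12 libraries for 24417 genes (99.98%, within 0.05 reads). The other 4, Bglap, Bglap2, Ibsp and Rn45s, enter no read value or depth. Reads are not independent molecules, so bounds from 3 reads cover counting error only. Replicates were not duplicates of one another. Lengths are exon unions of GENCODE M21.

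Groups follow the labels. The 3 comparisons were tested one by one, each over its 2 groups only, by limma 3.58.1 (R 4.3.3, two-sided, with a mean trend and a batch term) over the 18948 genes that vary and are in both tables, with Benjamini-Hochberg adjustment and a threshold of 0.05. The fit was tested on simulated data. Alternatives were no batch term, each batch alone, 1 fit of all libraries, a replicate block, no filter, the score table, no trend, other scalings, and leaving out each library. Voom on the recovered reads was added after seeing the data.

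Values in every library are given for the limb factors, the members that passed, the 8 with the largest SD among tumors and the highest paralog of each cluster with reads. Hoxb3, Hoxb9, Hoxc10 and Hoxd8 fall outside that rule and were added after their values were seen. The members and lists were chosen with earlier results of these data known. Python 3.11.15, numpy 2.4.6 and pandas 2.3.3 were used. Some genes, 1 of the members among them, enter the counts and sums and are not reported here by name.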

Additional observations from a re-analysis of the deposited data

Results flagged for a closer look

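Of 29 members clearly read in at least 1 tumor, 4 had 1 tumor that stood apart from the other 5 by Dixon's criterion, where the gap to the nearest tumor is divided by the range of all 6. Hoxd10 had a height of 2.731 (107 reads) and Hoxd3 of 2.26 (67 reads) in tumor 2, each with a ratio of 0.743. Chance flags about 1 in 20 groups. That rate does not apply to Hoxd10, which besides tumor 2 had 4 reads in tumor 4 and none in the remaining tumors. Hoxb9 had a height of 1.924 (34 reads) in tumor 4 and Hoxc10 a height of 2.035 (28 reads) in tumor 5. Neither had reads in the other 5 tumors. The ratio is then 1 at any number of reads, so it says nothing of how far those tumors stand apart and the chance rate does not apply.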

How the results depend on the processing

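Of 252 values of called members under the alternatives, 155 kept direction and call, 97 kept direction and lost the call, and none reversed. Without 1 library, calls between the MSC groups ran from 0 to 45 over all genes, highest without WT MSC 1, and 0 among members. In tumors against the libraries labelled KO MSC they ran from 249 (without KO MSC 2) to 1032 (without KO MSC 3), with 0 to 1 members higher and 0 to 2 lower. Against WT MSC they ran from 1395 (without WT MSC 1) to 4516 (without tumor 4), with 0 to 5 members higher and 2 to 7 lower. Batch 2 alone gave 43 calls between the MSC groups, 27 against the libraries labelled KO MSC with 0 members higher and 0 lower, and 540 against WT MSC with 1 higher and 2 lower. Batch 1 alone has 1 library per MSC group, which is assumed to vary like the 3 tumors beside it. It gave 3247 calls against the library labelled KO MSC 1, with 0 members higher and 6 lower, and 0 higher against WT MSC 1. Most calls over all genes in batch 1 alone were lower in tumors, against either MSC library, and some members were lower against WT MSC 1 also. With 1 MSC library per fit, these counts cannot tell whether the members differ from all genes. The comparison between the MSC groups could not be fitted in batch 1 alone, since it leaves no spread to estimate. For tumors against the libraries labelled KO MSC, no batch term gave 0 members lower, no filter 0 lower, all libraries in 1 fit 1993 genes and 3 members higher, median centring 2433 and 2 lower, voom 1628 and 4 higher, and voom scaled by total reads 1666, 3 higher and 3 lower. Against WT MSC, 1 fit gave 5 members higher, no filter 4 lower, voom 6 higher, and voom scaled by total reads 5874 genes. The cause of these changes was not tested. Counting a member as clearly read from a height of 0.5 gave 10 to 33 members per library and from 2 gave 5 to 15.

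Same-numbered libraries did not deviate together in every pair (correlation -0.267 to 0.238), so the numbers were not taken as pairs. With a replicate block, tumors against the libraries labelled KO MSC gave 34 genes, with 0 members higher and 0 lower, and tumors against WT MSC gave 1445, with 0 higher and 2 lower (Hoxc10 and Pitx1). Not every WT or tumor library correlated best with its own number. Depth of 6841787 to 19318123 reads limits members under 13.5 normalized reads, where single reads set the values.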

Other observations

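Noncoding transcripts of the Hox clusters were read beside the members. Of 9 tested, 0 rose and 1 fell in tumors against WT MSC, Hotair of the Hoxc cluster (-0.55 ± 0.09, SE, adjusted p = 0.00475, limma), a transcript known for binding Polycomb proteins. It had 5, 8 and 3 reads in WT MSC, 8, 8 and 0 in the libraries labelled KO MSC and 0 in all tumors. Hoxa11os, antisense to Hoxa11, had 62, 38 and 40 reads in WT MSC, 27, 64 and 202 in the libraries labelled KO MSC, 56 in tumor 2, 45 in tumor 5 and 0 in the other 4 tumors, the same 4 without Hoxa11 reads. Of the exon bases of Hoxa11, 35% are shared with Hoxa11os, and without strand their reads cannot be told apart. Hotairm1 had 21, 34 and 22 reads in WT MSC, 11, 48 and 126 in the libraries labelled KO MSC and 190, 52, 77, 13, 95 and 142 in tumors 1 to 6, and did not pass (1.34 ± 0.51, SE, adjusted p = 0.104, limma). Hottip, beside Hoxa13, had 3 reads in WT MSC 1 and 7 in the library labelled KO MSC 1 and none elsewhere.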
